A study of Mus musculus with 12 samples.

Results

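The 9 genes described here encode proteins of single organs that are known targets of autoimmune disease: Rbp3 and Sag of the retina, Tg of the thyroid, Atp4a and Atp4b of the stomach, Gad1 and Gad2 of neurons and endocrine cells, Chrna1 of skeletal muscle and Obp1a of lacrimal and nasal glands. They were found by Entrez ID among the 27179 genes of each deposited count file, and all 9 were present. Levels are given as CPM, the gene's count scaled to a fixed library total. With the filter on low counts, 7 of the 9 genes entered the test, and Rbp3 and Gad2 did not. On GRCm38.p6 the retinal genes lie at chr14:33954003-33964219 and chr1:87798143-87845158, Tg at chr15:66670754-66850721, Atp4a at chr7:30712209-30725534, Atp4b at chr8:13386209-13396778, Gad1 at chr2:70561303-70602014, Gad2 at chr2:22621015-22693877, Chrna1 at chr2:73563281-73580338 and Obp1a at chrX:78085505-78091374.

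The study sequenced RNA from thymic epithelial cells (TECs) sorted from C57BL/6 mice, to see what the loss of Hoil does to them. There were 4 groups of 3 libraries. HOIL-deficient mice were Foxn1creT/+ HOILlox/lox and gave medullary cells with high MHC class II (mTEChi) and cortical cells (cTECs). Control mice were Foxn1cre+/+ Hoillox/lox, with the floxed allele and without Cre, and gave the same 2 cell types, so effects of the Cre transgene and of the deletion cannot be told apart. Foxn1 drives Cre in thymic epithelium and is also active in skin and hair follicle epithelium, which was not analysed here. Replicate 3 of both HOIL-deficient groups was from females and the other 10 libraries were from males. The labels give no age. They leave unsaid whether replicates came from separate animals, and p-values cover the spread among libraries, which may be technical. Because each library is bulk RNA, fewer cells of a type and less RNA per cell cannot be told apart.

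Medullary TECs transcribe a large share of the genes that are otherwise restricted to peripheral organs, and present their peptides so that T cells reactive to them are removed or become regulatory. The regulators Aire and Fezf2 each drive part of this repertoire, and each antigen is made in a small minority of medullary cells. HOIL, the product of Rbck1, is a subunit of the complex that builds linear ubiquitin chains and promotes NF-kB signalling, a pathway that medullary TECs need in order to develop.

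The sequences of 4 promoters are shown because these genes stood at the extremes of the results that follow: Sag and Obp1a had the largest fitted changes upward and downward in mTEChi among the 7 tested antigen genes, and Gad1 and Gad2, which encode the same enzyme activity, had very unequal levels. Each window is the 250 bases before a start that RefSeq lists for the gene on GRCm38.p6, read 5′ to 3′ on the gene's strand. For Sag, Gad1 and Gad2 that start lies inside the gene span given above, so the window is not upstream of the whole gene. The Obp1a window adjoins the span of its gene. Capitals mark matches on either strand to TATAAA, to TAATCC (a site type bound by the photoreceptor factor Crx) and to CAGCTG (an E-box).
Sag chr1:87803430-87803679 plus strand: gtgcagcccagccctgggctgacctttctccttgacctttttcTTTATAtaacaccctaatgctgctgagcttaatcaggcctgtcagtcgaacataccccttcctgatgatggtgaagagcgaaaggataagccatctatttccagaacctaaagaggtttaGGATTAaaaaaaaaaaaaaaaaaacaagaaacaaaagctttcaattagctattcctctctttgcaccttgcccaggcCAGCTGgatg
Obp1a chrX:78091375-78091624 minus strand: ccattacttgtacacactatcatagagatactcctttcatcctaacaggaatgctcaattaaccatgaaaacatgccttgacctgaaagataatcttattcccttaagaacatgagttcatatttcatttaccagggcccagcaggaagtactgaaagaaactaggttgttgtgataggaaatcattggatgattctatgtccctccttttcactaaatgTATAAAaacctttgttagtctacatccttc
Gad1 chr2:70561879-70562128 plus strand: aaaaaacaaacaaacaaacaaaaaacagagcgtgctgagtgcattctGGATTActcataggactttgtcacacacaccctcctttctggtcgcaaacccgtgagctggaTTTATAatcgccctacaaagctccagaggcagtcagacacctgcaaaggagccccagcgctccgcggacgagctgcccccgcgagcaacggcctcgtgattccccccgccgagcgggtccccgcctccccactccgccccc
Gad2 chr2:22622077-22622326 plus strand: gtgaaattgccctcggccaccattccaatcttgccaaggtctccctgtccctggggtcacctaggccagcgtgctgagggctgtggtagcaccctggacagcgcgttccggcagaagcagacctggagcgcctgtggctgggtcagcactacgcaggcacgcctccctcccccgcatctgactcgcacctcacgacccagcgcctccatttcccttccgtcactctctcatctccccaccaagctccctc
The Sag window held 1 TATAAA, 1 TAATCC and 1 CAGCTG. The Obp1a window held 1 TATAAA and no CpG. The Gad1 window held 17 CpG, at 0.865 of the number its base composition predicts, with 1 TATAAA and 1 TAATCC. The Gad2 window held 13 CpG, at 0.545 of the predicted number, and none of these letters. Across all 32851 promoters of the table the median of that CpG measure was 0.374, 12.4% held TATAAA, 6.25% held TAATCC and 13.0% held CAGCTG. The table lists 7 of the antigen genes, not Tg and Atp4b. Of the windows not shown, those of Atp4a and Chrna1 each held 2 CAGCTG and that of Rbp3 held 1 TAATCC. A match is a description of letters and not a site.

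The libraries held 7941217 to 14274333 counts. Rbck1, the targeted gene, averaged 15.3 ± 6.91 CPM in HOIL-deficient mTEChi and 117 ± 10.3 CPM in control mTEChi, and 25.9 ± 6.19 CPM in HOIL-deficient cTECs and 213 ± 27.4 CPM in control cTECs (SD, n = 3 each). Each of these falls passed the test, with edgeR quasi-likelihood adjusted p-values of 4.5e-05 in mTEChi and 2.8e-05 in cTECs. Markers of cTECs summed to 2097 to 3133 CPM in HOIL-deficient mTEChi and 2156 to 2632 CPM in control mTEChi, and to 24079.6 to 25678 CPM in HOIL-deficient cTECs and 42341 to 55132 CPM in control cTECs. Markers of mTECs summed to 11835 to 14932 CPM in HOIL-deficient mTEChi and 8594 to 10715 CPM in control mTEChi, and to 4004 to 4561 CPM in HOIL-deficient cTECs and 3985 to 4070 CPM in control cTECs. In cTECs all 8 cTEC markers and 9 of 10 thymocyte markers were lower with HOIL deficiency, and 6 of 6 adipocyte and 5 of 9 fibroblast and pericyte markers were higher. In the same comparison 6 of 7 endothelial and 4 of 8 neuron and Schwann cell markers were higher. Endothelial markers summed to 112 to 267 CPM in HOIL-deficient cTECs and 25.2 to 48.3 CPM in control cTECs. Mitochondrial transcripts took 1.71 to 1.91% of counts in HOIL-deficient mTEChi and 3.19 to 8.93% in control mTEChi, and Malat1 took 0.713 to 0.983% in HOIL-deficient mTEChi and 3.29 to 5.13% in control mTEChi. Summed endothelial markers ran from 129.9 to 413 CPM in HOIL-deficient mTEChi and from 42.2 to 59.6 CPM in control mTEChi, with 6 of 7 markers higher by the test. Fibroblast and pericyte markers summed to 621 to 822 CPM in HOIL-deficient mTEChi and 293 to 367 CPM in control mTEChi, with 2 of 9 higher. Thymocyte markers summed to 137 to 252 CPM in HOIL-deficient mTEChi and 117 to 180.1 CPM in control mTEChi. No marker of these lists was at 0 in either mTEChi group, and the part that these differences have in the antigen results was not tested, except where values without mitochondrial genes and Malat1 are given.

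In mTEChi, loss of HOIL left most of these antigen transcripts present, and the fitted changes of the members lay on both sides of 0. Atp4b rose to 2.37 times its control level. Sag, at 2.51-fold, and Obp1a, at 0.211-fold, had larger fitted differences that did not pass the adjusted threshold of 0.05. Gad2 had no count in any HOIL-deficient library. Gad1, Atp4a and Tg had group means that differed by less than the spread between replicates. Of the 7 tested members 1 was called, beside 19.9% of all 19398 tested genes called in either direction (11.3% higher and 8.59% lower). Libraries of the groups did not overlap for 5 of the 9 members, with 3 higher and 2 lower in HOIL-deficient mTEChi, beside 44.5% of all tested genes without overlap (23.8% higher and 20.6% lower). The 5 include Gad2 and the 9 also include Rbp3, neither of which is among the tested genes.

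**Figure D1:**
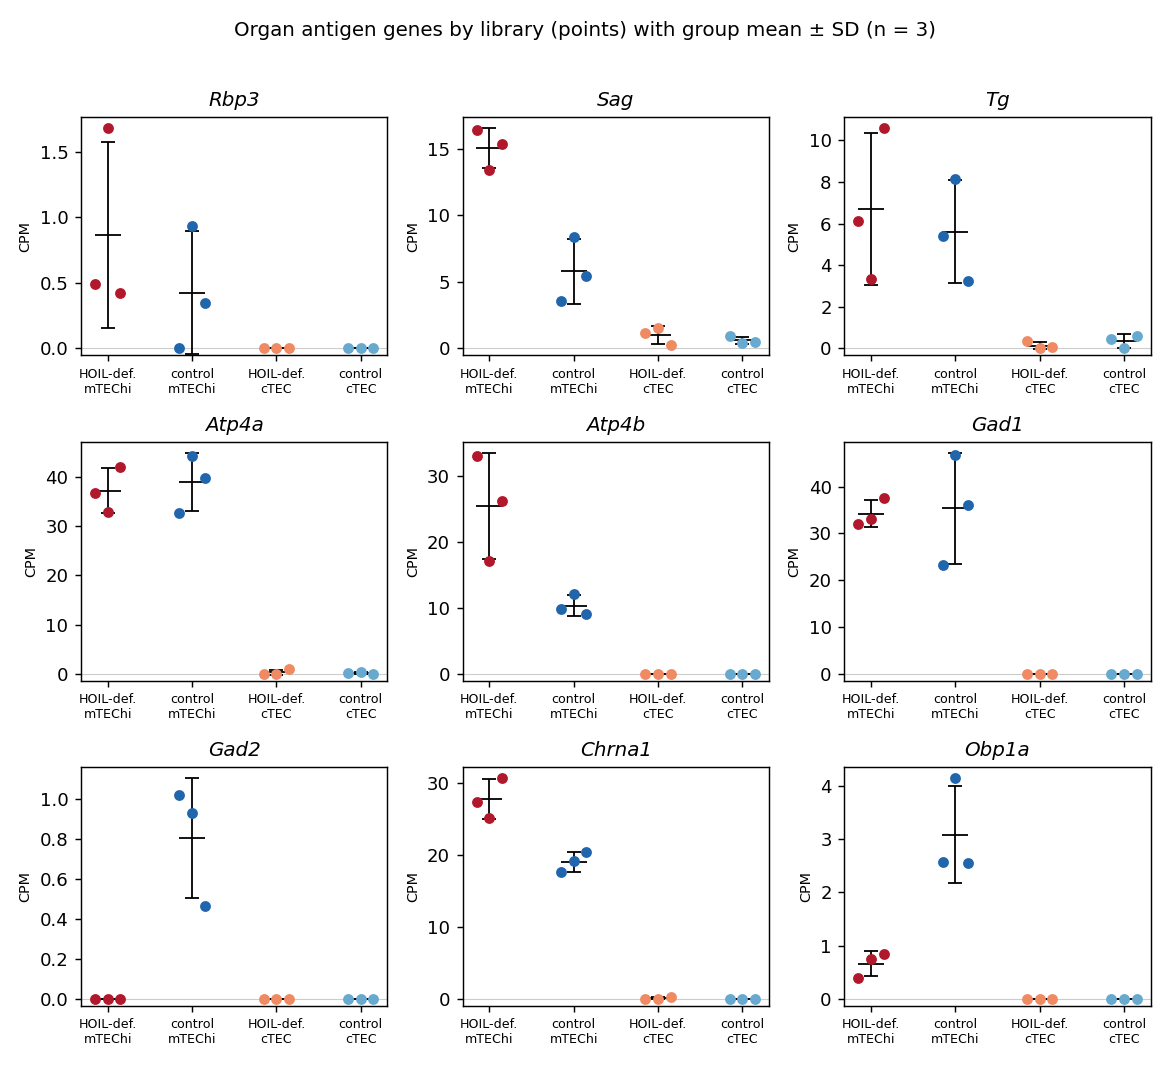
CPM of each antigen gene (vertical axes, each with its own scale) in every library of the 4 groups (horizontal axis). Points are libraries and bars the group mean ± SD (n = 3), and the cTEC libraries sit at or near 0 for every gene while Atp4b runs from 17.1 to 33.1 CPM in HOIL-deficient mTEChi and from 9.03 to 12.1 CPM in control mTEChi.

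The stomach antigens are the paired subunits of the gastric proton pump of parietal cells, which is the main target in autoimmune gastritis. Atp4a encodes the catalytic alpha subunit and Atp4b the glycosylated beta subunit that the alpha subunit needs to reach the membrane. Atp4b had 33.1, 17.1 and 26.3 CPM in HOIL-deficient mTEChi (replicates 1 to 3), against 9.83, 12.1 and 9.03 CPM in control mTEChi. Every HOIL-deficient library was above every control library, and replicate 2 of the HOIL-deficient group was the nearest to them. The log2 fold change was 1.25 with a standard error of 0.359, and the edgeR quasi-likelihood adjusted p was 0.036. The call was lost when any library but replicate 2 of the HOIL-deficient group was left out, while the log2 fold change stayed between 1.01 and 1.47. The adjusted p was 0.14 without HOIL-deficient replicate 1, 0.094 without HOIL-deficient replicate 3, and 0.11, 0.075 and 0.13 without control replicates 1, 2 and 3. In males alone it was 0.075, with a log2 fold change of 1.24. With mitochondrial genes and Malat1 left out before scaling, the log2 fold change was 1.23 and the adjusted p 0.039.

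For Atp4a no change was called. It had 36.8, 32.9 and 42.1 CPM in HOIL-deficient mTEChi, against 32.7, 44.4 and 39.9 CPM in control mTEChi. The groups overlapped, and the log2 fold change was -0.12 with a standard error of 0.444 (edgeR adjusted p = 0.88). Within each library, the ratio of Atp4b to Atp4a in counts per base of length was 2.34, 1.35 and 1.62 in HOIL-deficient mTEChi, against 0.782, 0.708 and 0.587 in control mTEChi. The beta transcript thus outnumbered the alpha transcript in every HOIL-deficient library and in no control library. The mean ratio was 1.77 ± 0.511 in HOIL-deficient mTEChi and 0.692 ± 0.0982 in control mTEChi (SD, n = 3 each), a 2.56-fold difference. The exact 2-sided permutation test gave p = 0.1, the smallest that 3 libraries against 3 allow. Leaving out each mTEChi library in turn moved the quotient between 2.15 and 2.86, an alternative chosen after seeing the data.

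**Figure D2:**
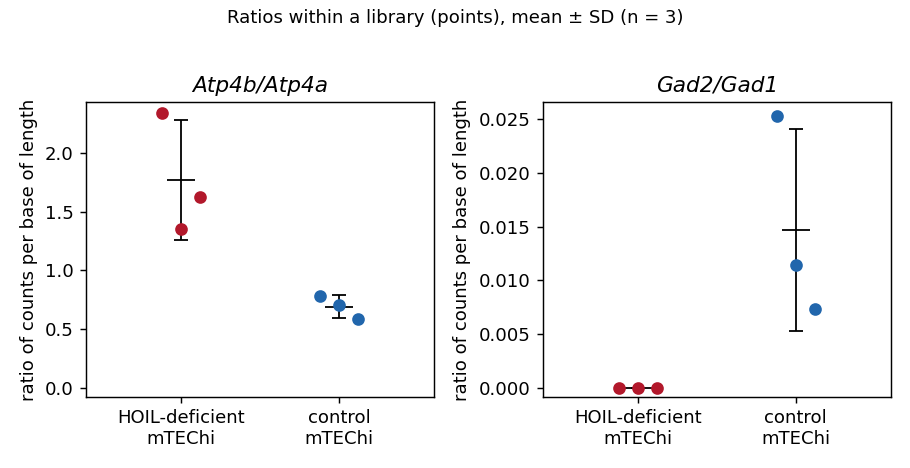
Ratios within each mTEChi library, in counts per base of gene length (vertical axes), of Atp4b to Atp4a and of Gad2 to Gad1, by group (horizontal axes). Points are libraries and bars the mean ± SD (n = 3), with Atp4b to Atp4a at 1.35 to 2.34 in HOIL-deficient mTEChi and 0.587 to 0.782 in control mTEChi, and Gad2 to Gad1 at 0 in all HOIL-deficient libraries.

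Among 19 other genes of the gastric gland, 18 were tested, of which 1 rose and 1 fell in HOIL-deficient mTEChi, and their median log2 fold change was -0.50 beside -0.026 over all tested genes. In either direction DESeq2 called 5 of them, limma-voom 5 and the fit of the compared groups alone 4. Over all genes these 3 fits called more than the 3858 of the edgeR fit, at 4756, 4663 and 4863. Their counts for the lists below stand beside the same totals. Hdc, which makes histamine in enterochromaffin-like cells and mast cells, averaged 1231 ± 199 CPM in HOIL-deficient mTEChi and 533 ± 187 CPM in control mTEChi, a log2 fold change of 1.16 (edgeR adjusted p = 0.03). Muc5ac, the surface mucin of the stomach, averaged 8.14 ± 2.26 CPM in HOIL-deficient mTEChi and 31.2 ± 3.03 CPM in control mTEChi, a log2 fold change of -2.01 (edgeR adjusted p = 0.0036). Tff1, a peptide secreted with that mucin, averaged 25.7 ± 11.1 CPM in HOIL-deficient mTEChi and 53.8 ± 18.8 CPM in control mTEChi, and Ghrl, the ghrelin gene, 4.78 ± 2.66 CPM in HOIL-deficient mTEChi and 12.5 ± 3.15 CPM in control mTEChi, without passing the test (edgeR adjusted p = 0.058 and 0.079).

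The retinal antigens both belong to photoreceptors. Sag encodes S-antigen, the arrestin that shuts off the light response in rods. Rbp3 encodes the retinoid carrier of the space between photoreceptors and pigment epithelium, and immunization with either protein causes uveitis in rodents. Sag had 16.4, 13.4 and 15.4 CPM in HOIL-deficient mTEChi, against 3.58, 8.38 and 5.44 CPM in control mTEChi. The HOIL-deficient libraries lay close together and all above the control libraries. The means were 15 ± 1.54 CPM in HOIL-deficient mTEChi and 5.80 ± 2.42 CPM in control mTEChi, and the log2 fold change was 1.33 with a standard error of 0.502. It did not pass the test in edgeR (adjusted p = 0.077), and over 14 alternatives the adjusted p ran from 0.013 to 0.26, under 0.05 in 2 of them. Rbp3 was near the limit of detection, with 5, 18 and 6 counts in HOIL-deficient mTEChi, against 0, 9 and 3 counts in control mTEChi. The groups overlapped, and the exact 2-sided permutation test on CPM gave p = 0.5.

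Of 30 other photoreceptor and visual cycle genes, 22 were tested, of which 1 rose and none fell in HOIL-deficient mTEChi, with a median log2 fold change of 0.01. Of these 22 genes DESeq2 called none, and limma-voom and the fit of the compared groups alone called 3 each. Nrl, the transcription factor that sets rod fate, averaged 0.521 ± 0.412 CPM in HOIL-deficient mTEChi and 2.66 ± 0.201 CPM in control mTEChi (edgeR adjusted p = 0.069). Cngb1, a subunit of the rod channel opened by cyclic GMP, averaged 31.8 ± 7.55 CPM in HOIL-deficient mTEChi and 16.5 ± 3.74 CPM in control mTEChi (edgeR adjusted p = 0.13).

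Glutamate decarboxylase makes the transmitter GABA, and its 2 forms are encoded by Gad1 and Gad2. The Gad2 product is a classical islet autoantigen of autoimmune diabetes. Gad1 had 32.1, 33.0 and 37.5 CPM in HOIL-deficient mTEChi, against 23.2, 46.8 and 36.1 CPM in control mTEChi. The HOIL-deficient libraries lay inside the range of the control libraries, and the log2 fold change was -0.10 with a standard error of 0.275 (edgeR adjusted p = 0.84). Gad2 had 0 counts in each of the 3 HOIL-deficient mTEChi libraries, against 10, 9 and 4 counts in control mTEChi. The groups did not overlap. Taking 3 counts over the group as the limit that 0 allows, which is 0.0854 CPM, Gad2 was at least 9.59-fold lower in HOIL-deficient mTEChi than the pooled control libraries. The exact 2-sided permutation test gave p = 0.1, the smallest possible here, and with no filter on low counts the edgeR adjusted p was 0.037. Even in control mTEChi the Gad2 level per length was 0.0147 ± 0.00941 of the Gad1 level (SD, n = 3).

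Of the other 9 genes of GABA metabolism and transport, 8 were tested and edgeR called none in mTEChi, none of them had an unadjusted p under 0.05, and DESeq2 and limma-voom called none. Their median log2 fold change was -0.08. Summed neuron and Schwann cell markers were 399.7 to 422 CPM in HOIL-deficient mTEChi and 240.2 to 258 CPM in control mTEChi, with 2 of 8 higher.

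Chrna1 encodes the alpha subunit of the muscle acetylcholine receptor, against which antibodies are made in myasthenia gravis. It had 27.3, 25.1 and 30.6 CPM in HOIL-deficient mTEChi, against 17.6, 19.1 and 20.4 CPM in control mTEChi. The groups did not overlap, but the difference was small, with means of 27.7 ± 2.76 CPM in HOIL-deficient mTEChi and 19.0 ± 1.38 CPM in control mTEChi and a log2 fold change of 0.48 with a standard error of 0.344 (edgeR adjusted p = 0.36). The beta subunit gene Chrnb1 averaged 18.1 ± 2.70 CPM in HOIL-deficient mTEChi and 13.1 ± 0.796 CPM in control mTEChi (edgeR adjusted p = 0.44). The Chrna1 to Chrnb1 ratio per length was 0.775 ± 0.118 in HOIL-deficient mTEChi and 0.728 ± 0.0175 in control mTEChi (exact 2-sided permutation p = 0.6). Of 15 other receptor and neuromuscular junction genes, 14 were tested, none rose and 1 fell, with a median log2 fold change of -0.04. The gene that fell was Agrn, whose product clusters receptors at the synapse, at 15.5 ± 3.29 CPM in HOIL-deficient mTEChi and 51.2 ± 5.11 CPM in control mTEChi (log2 fold change -1.79, edgeR adjusted p = 0.0022). Skeletal muscle markers summed to 116 to 182 CPM in HOIL-deficient mTEChi and 115 to 120 CPM in control mTEChi, with 1 of 8 higher.

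Tg encodes thyroglobulin, the large protein on which thyroid hormone is made and a target in autoimmune thyroiditis. It was the most scattered of the well detected members, with 6.12, 3.36 and 10.6 CPM in HOIL-deficient mTEChi, against 5.43, 8.17 and 3.24 CPM in control mTEChi. The groups overlapped over most of their range, and the log2 fold change was 0.20 with a standard error of 0.677 (edgeR adjusted p = 0.87). Its sign turned when some libraries were left out, with values from -0.30 to 0.53. Tg shares 112 exon bases with Gm17140 on the opposite strand, and reads of the pair cannot be told apart because strandedness is not given in the sources used here. Of 14 other genes of thyroid hormone synthesis, 13 were tested and edgeR called none in mTEChi, none had an unadjusted p under 0.05, DESeq2 called none and limma-voom called 1. Their median log2 fold change was -0.25. Slc5a5, the iodide importer, averaged 3.21 ± 2.03 CPM in HOIL-deficient mTEChi and 6.15 ± 1.94 CPM in control mTEChi (edgeR adjusted p = 0.17).

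Obp1a encodes an odorant-binding lipocalin of nasal and lacrimal secretions, which mice that lack Aire can recognize as an autoantigen. It had 4, 8 and 12 counts in HOIL-deficient mTEChi, which is 0.395, 0.747 and 0.841 CPM, against 25, 40 and 22 counts in control mTEChi, which is 2.56, 4.14 and 2.55 CPM. Every HOIL-deficient library was below every control library. The log2 fold change was -2.25 with a standard error of 0.720, and it missed the threshold in edgeR (adjusted p = 0.053). Over 14 alternatives the adjusted p ran from 0.0049 to 0.19, and it was under 0.05 in 4 of them.

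The secreted proteins of lacrimal, nasal and salivary glands were the list with the lowest median among the 9 lists, at -1.0 over 15 tested genes. Of these 15 genes 1 rose and 3 fell in HOIL-deficient mTEChi. In either direction DESeq2 called 7, limma-voom 9 and the fit of the compared groups alone 8, beside 4756, 4663 and 4863 of all genes. Lcn4, a lipocalin like Obp1a, averaged 1.97 ± 0.198 CPM in HOIL-deficient mTEChi and 9.71 ± 2.93 CPM in control mTEChi (log2 fold change -2.35, edgeR adjusted p = 0.012). The salivary genes Dcpp1 and Dcpp3 fell as well, with log2 fold changes of -1.20 and -1.0 (edgeR adjusted p = 0.0048 and 0.025). They are near-identical copies, so reads may be split between them. Lpo, the lactoperoxidase of these secretions, rose, at 598 ± 77.2 CPM in HOIL-deficient mTEChi and 245 ± 75.2 CPM in control mTEChi (log2 fold change 1.24, edgeR adjusted p = 0.0052). Obp1b, the near neighbour of Obp1a in sequence, averaged 0.311 ± 0.539 CPM in HOIL-deficient mTEChi and 1.83 ± 0.430 CPM in control mTEChi (edgeR adjusted p = 0.18), and reads may be shared between these paralogs.

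**Figure D3:**
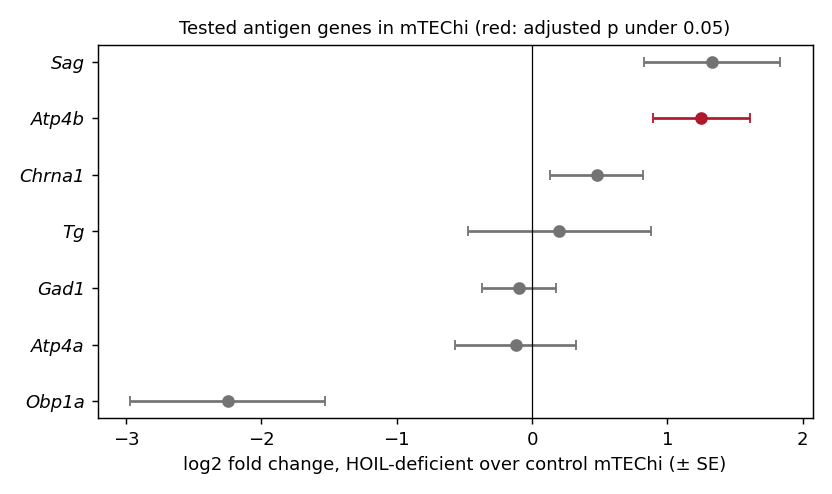
Log2 fold change of HOIL-deficient over control mTEChi (horizontal axis) for the 7 tested antigen genes (vertical axis), with bars for the standard error. Atp4b at 1.25 is drawn in red as the only gene of the 7 with an edgeR adjusted p under 0.05, and Obp1a lies lowest at -2.25.

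The differences in Aire and Fezf2 transcripts did not pass the edgeR test. Aire averaged 928 ± 127 CPM in HOIL-deficient mTEChi and 770.5 ± 196 CPM in control mTEChi (log2 fold change 0.22, standard error 0.352, edgeR adjusted p = 0.71). Fezf2 averaged 619.6 ± 52.3 CPM in HOIL-deficient mTEChi and 349 ± 41.3 CPM in control mTEChi (log2 fold change 0.77, standard error 0.383, edgeR adjusted p = 0.17). The Aire libraries of the groups overlapped. Those of Fezf2 did not, at 584 to 679.7 CPM in HOIL-deficient mTEChi and 311 to 393 CPM in control mTEChi. Of all tested genes 44.5% were without overlap. Set against Aire within each library, per base of length, Sag stood at 0.0183 ± 0.00111 of the Aire level in HOIL-deficient mTEChi and 0.00822 ± 0.00138 in control mTEChi. Atp4b stood at 0.0394 ± 0.00874 in HOIL-deficient mTEChi and 0.0200 ± 0.00415 in control mTEChi. Obp1a stood at 0.00185 ± 0.000739 in HOIL-deficient mTEChi and 0.0102 ± 0.00153 in control mTEChi. The groups did not overlap in any of these 3 ratios, and the exact 2-sided permutation p of each was 0.1, the smallest possible. The Gad1 to Aire ratio was 0.0222 ± 0.00286 in HOIL-deficient mTEChi and 0.0270 ± 0.00259 in control mTEChi (exact 2-sided permutation p = 0.2). Of 10 regulators of tissue-restricted genes, none rose and 1 fell in the edgeR fit. In either direction DESeq2 called 1, limma-voom 2 and the fit of the compared groups alone 2.

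Antigens of other organs also moved both ways. Of 33 further autoantigen genes 27 were tested, with 2 higher, 2 lower and a median log2 fold change of -0.39. Over all tested genes edgeR called 11.3% higher and 8.59% lower. In either direction DESeq2 called 5, limma-voom 8 and the fit of the compared groups alone 8. The islet genes Ins2, encoding insulin, and Iapp, encoding amylin, fell, to 8.30 ± 2.70 CPM in HOIL-deficient mTEChi against 44.2 ± 11.6 CPM in control mTEChi, and to 98.4 ± 14.1 CPM in HOIL-deficient mTEChi against 278 ± 37.5 CPM in control mTEChi (edgeR adjusted p = 9.9e-04 and 0.0015). Tph1, the peripheral enzyme of serotonin synthesis, rose to 87.5 ± 5.68 CPM in HOIL-deficient mTEChi against 40.9 ± 13.5 CPM in control mTEChi (edgeR adjusted p = 0.011). Of 20 lineage transcription factors of the source organs, 13 were tested and edgeR called none, 2 had an unadjusted p under 0.05, DESeq2 called 1 and limma-voom 2, and their median log2 fold change was -0.32. Several of these factors, such as Nrl, also belong to the photoreceptor, thyroid, gastric or neuromuscular junction lists above, so these lists are not independent.

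**Figure D4:**
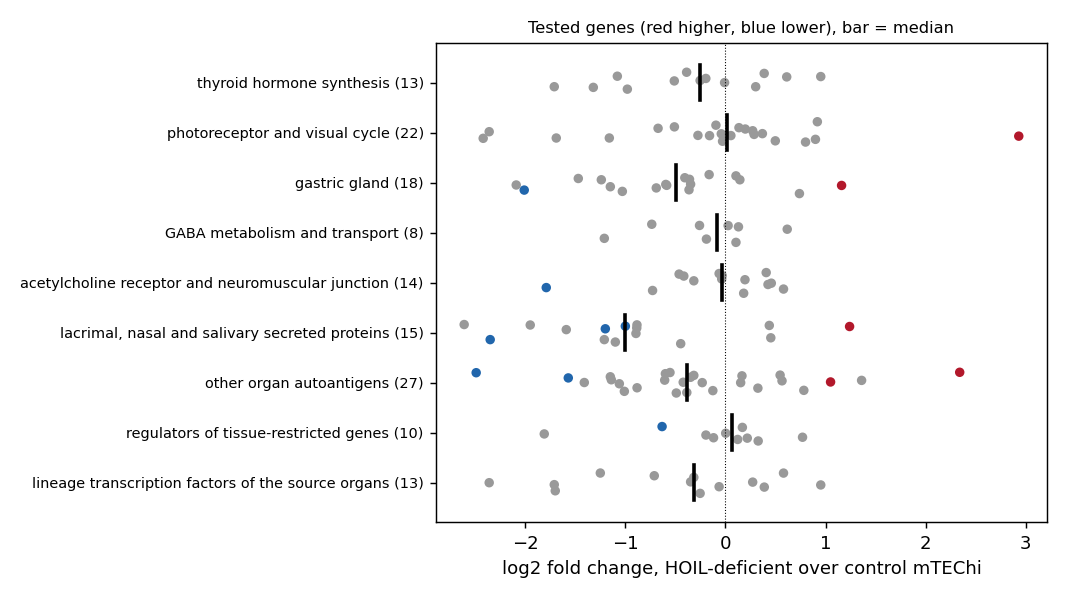
Log2 fold change of HOIL-deficient over control mTEChi (horizontal axis) for the tested genes of 9 lists (vertical axis, with the number tested). Some genes stand in several lists. Points are genes, red where higher and blue where lower by the test, and the black bars are medians, which run from -1.0 for the lacrimal, nasal and salivary genes to 0.06 for the regulators.

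Levels of different members were compared only per length, as RPKM, the CPM divided by the counted length in kilobases. In HOIL-deficient mTEChi the order was Atp4b at 19.2 RPKM, Atp4a at 10.8, Gad1 at 10.6, Sag at 8.76, Chrna1 at 6.46, Obp1a at 0.873, Tg at 0.795, Rbp3 at 0.164 and Gad2 at 0 RPKM. Libraries of neighbours in that order overlapped for Atp4a with Gad1 and for Obp1a with Tg. In control mTEChi the order was Atp4a at 11.3 RPKM, Gad1 at 11 RPKM, Atp4b at 7.78, Chrna1 at 4.44, Obp1a at 4.07, Sag at 3.38, Tg at 0.665, Gad2 at 0.143 and Rbp3 at 0.0807 RPKM. There the libraries overlapped for Atp4a with Gad1, Gad1 with Atp4b, Chrna1 with Obp1a, Obp1a with Sag, and Gad2 with Rbp3. Atp4b thus stood first in HOIL-deficient mTEChi, with 82.8% of the 27179 genes at a lower mean RPKM, and the share below it in control mTEChi was 71.1%. For Sag the shares were 71.9% in HOIL-deficient mTEChi and 56.4% in control mTEChi, and for Obp1a 37.9% in HOIL-deficient mTEChi and 59.9% in control mTEChi. For Gad1 they were 74.9% in HOIL-deficient mTEChi and 76.4% in control mTEChi.

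**Figure D5:**
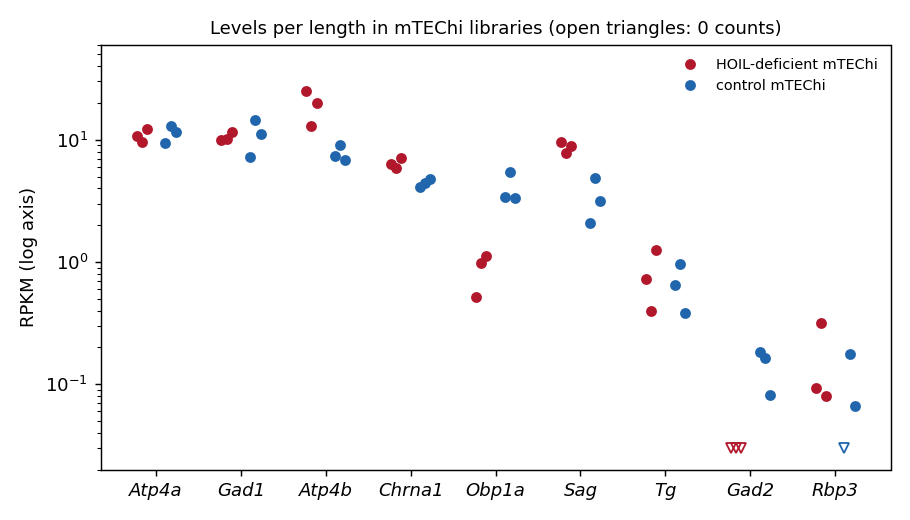
RPKM on a log axis (vertical) of the 9 antigen genes (horizontal axis, ordered by the control mean) in each mTEChi library, with HOIL-deficient libraries to the left of control libraries. Open triangles mark libraries with 0 counts, which are the 3 HOIL-deficient libraries for Gad2 and 1 control library for Rbp3.

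Cortical TECs held almost none of these transcripts in either genotype, and no effect of HOIL loss was detectable there. Rbp3, Atp4b, Gad1, Gad2 and Obp1a had 0 counts in all 6 cTEC libraries, which allows up to 0.0953 CPM in HOIL-deficient cTECs and 0.105 CPM in control cTECs. Chrna1 had 3 counts in HOIL-deficient replicate 3 and none in the other 5 cTEC libraries. Sag was found in every cTEC library, with 1.18, 1.54 and 0.226 CPM in HOIL-deficient cTECs, against 0.921, 0.378 and 0.516 CPM in control cTECs. These ranges overlapped, and the log2 fold change was 0.53 with a standard error of 0.640 (edgeR adjusted p = 0.67). Tg had 3, 0 and 1 counts in HOIL-deficient cTECs, against 5, 0 and 6 counts in control cTECs (edgeR adjusted p = 0.41). Atp4a had 12 counts in HOIL-deficient replicate 3 and none in the other HOIL-deficient cTEC libraries, against 2, 3 and 0 counts in control cTECs (edgeR adjusted p = 0.66). Aire itself averaged 0.689 ± 0.863 CPM in HOIL-deficient cTECs and 0.846 ± 0.436 CPM in control cTECs.

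Of the 3 members with more than 3 counts in a cTEC group, edgeR called none for the effect of HOIL in cTECs, none had an unadjusted p under 0.05, and DESeq2 and limma-voom called none, beside 12.1% of all tested genes called by edgeR. The difference between the effects of HOIL in mTEChi and in cTECs was tested for the same 3 genes and was 0.81 for Sag, 1.72 for Tg and -1.01 for Atp4a on the log2 scale (edgeR adjusted p = 0.58, 0.42 and 0.62). None had an unadjusted p under 0.05 and DESeq2 and limma-voom called none, beside 9.84% of all tested genes called by edgeR. For Atp4b and the other members without cTEC counts no difference between the effects could be given.

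The contrast between the cell types was present with and without HOIL. In HOIL-deficient mice all 7 tested members were higher in mTEChi than in cTECs, beside 32.0% of all tested genes called higher. These 7 passed the filter on low counts through their mTEChi libraries. The count was thus largely fixed by the filter and is a description only. Against the limit that 0 counts allow in HOIL-deficient cTECs, Gad1 was at least 362-fold, Atp4b at least 267-fold and Obp1a at least 7.17-fold higher in HOIL-deficient mTEChi (edgeR adjusted p = 1.8e-07, 8.6e-07 and 0.0029). Chrna1 was higher by a count ratio of 294, with an exact 95% interval of 100.2 to 1426 for counting error only (edgeR adjusted p = 2.5e-07). Atp4a, Tg and Sag had log2 fold changes of 6.76, 5.67 and 4.08 with standard errors of 0.652, 0.949 and 0.584 (edgeR adjusted p = 1.3e-06, 2.1e-04 and 5.3e-05). Without HOIL-deficient cTEC replicate 3 the other 2 cTEC libraries held no Atp4a and no Chrna1 count, and the fitted Atp4a value was then 11.5, which depends on the prior count and is no bound. Without HOIL-deficient cTEC replicate 1 the other 2 cTEC libraries held 0 and 1 Tg counts. The fitted Tg value was then 7.05 and rests on that 1 cTEC count. Rbp3, not tested with the filter, was at least 8.66-fold higher in HOIL-deficient mTEChi, and Gad2 was at 0 in both.

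In control mice all 7 tested members were likewise higher in mTEChi, beside 37.8% of all tested genes called higher. The same limit from the filter holds for this count. Gad1 was at least 335-fold, Chrna1 at least 180.2-fold, Atp4b at least 98.4-fold and Obp1a at least 29.4-fold higher in control mTEChi than the limit in control cTECs (edgeR adjusted p = 1.4e-07, 2.3e-07, 2.4e-06 and 2.2e-04). Atp4a, Tg and Sag had log2 fold changes of 7.77, 3.95 and 3.27 with standard errors of 0.725, 0.837 and 0.598 (edgeR adjusted p = 7.4e-07, 9.5e-04 and 3.0e-04). The Atp4a value was 8.56 without control cTEC replicate 2 and 7.18 without control cTEC replicate 3. Gad2, not tested with the filter, was at least 7.78-fold higher. Rbp3 had 0, 9 and 3 counts in control mTEChi, against 0 in each control cTEC library, and the groups overlapped (exact 2-sided permutation p = 0.4). The number of members with any count was 8, 8 and 8 of 9 in HOIL-deficient mTEChi libraries and 8, 9 and 9 in control mTEChi libraries, and 2, 1 and 4 in HOIL-deficient cTEC libraries and 3, 2 and 2 in control cTEC libraries.

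The genes whose log2(CPM + 0.5) followed each tested member most closely over the 12 libraries, all of which share the split between cell types, were named by Pearson's r as a description. For Atp4b they were Grk1, a kinase of photoreceptors, with r = 0.9996, then Sel1l2 and Olfm3. For Obp1a they were Mup12 and Mup19, major urinary protein genes of the same lipocalin family, with r = 0.9976 and 0.9952, then Rhox2h. The Mup genes are near-identical copies, so reads may be split among them. Mup12 averaged 1.26 CPM in HOIL-deficient mTEChi and 6.71 CPM in control mTEChi. For Sag they were Wdr31, Stmn2, a neuronal regulator of microtubules, and Plscr5, and for Atp4a they were Akr1cl, Myo1a and Cpne6. For Gad1 they were Elobl, 2210409E12Rik and Lcn10, for Chrna1 Gm8221, Insm1 and Sprr2k, and for Tg Star, Saxo1 and Slc2a5.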

How the data were processed

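The authors deposited raw read counts per gene for each library, with the counted gene length. Per the labels' protocols, sorted cells gave total RNA that was amplified with a SMART-Seq kit and sequenced as Nextera XT libraries in paired ends. Per the submitters' processing notes, reads were counted with featureCounts on mm10. The aligner and the annotation are absent from the sources used here, as is the use of strand. RefSeq symbols (GRCm38.p6) were joined by Entrez ID and matched 25275 of 27179 IDs. The deposited joined table has 12 value columns, not used here because each library has its own file.

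In R 4.3.3, edgeR 4.0.16 filtered genes with filterByExpr (minimum count 10, minimum total 15), which left 19398, and scaled the 12 libraries by TMM. Its robust quasi-likelihood test was fitted with 1 coefficient per group, with Benjamini-Hochberg adjustment over all tested genes and calls under 0.05, and was tested on simulated data. A standard error is the size of the log2 fold change divided by the square root of F, and is approximate. For a group at 0, folds are bounds against 3 counts in its pooled libraries. Such bounds and intervals allow for counting error alone, as PCR copies were not marked. Fitted fold changes against groups at 0 are not printed for the 9 antigen genes, except for Atp4a in some alternatives. Those without HOIL-deficient cTEC replicate 3, and those in males alone, leave that group at 0. Such values depend on the prior count. Alternatives were RLE scaling, no filter, DESeq2 1.42.0, limma-voom (limma 3.58.1), the compared groups alone, males alone, a replicate block and leaving out each library. One added after seeing the data left out mitochondrial genes and Malat1.

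The 9 genes, the 9 gene lists and the tests were chosen with earlier results of these data known. The genes named are the 9 antigens, Rbck1, Aire and Fezf2, from each list members among the 4 with the smallest p in the mTEChi comparison or called there, Chrnb1 and Obp1b as partners of antigen genes, and the 3 genes nearest to each tested antigen. Some genes of these lists are not reported here. Of the lacrimal, nasal and salivary list, 15 of 17 symbols were found. Replicates of a group differed beyond counting noise and each counted as a sample.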

Additional observations from a re-analysis of the deposited data

Results flagged for a closer look

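In 3 list genes the effect of HOIL loss differed between mTEChi and cTECs by the edgeR test of the difference, given as the mTEChi effect minus the cTEC effect on the log2 scale. For Tph1 the difference was 2.96 (adjusted p = 0.0012), with an effect of 1.05 in mTEChi and -1.91 in cTECs. For Muc5ac it was -3.85 (adjusted p = 0.012), with -2.01 in mTEChi and 1.84 in cTECs, where it averaged 0.582 CPM in HOIL-deficient and 0.157 CPM in control libraries. For Agrn it was -1.63 (adjusted p = 0.032), with -1.79 in mTEChi and -0.16 in cTECs. None of the 9 antigen genes was among these, though the difference could be given only for Sag, Tg and Atp4a.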

How the results depend on the processing

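For HOIL loss in mTEChi, the count of antigen genes called was 2 with RLE scaling, without a filter and in DESeq2, 3 in limma-voom and with only the compared groups, 0 in males and 0 with a replicate block, beside 1 in the fit reported, and 0 to 1 with a library left out. All genes called in these settings were 3721 with RLE scaling, 3515 without a filter, 4756 in DESeq2 and 4663 in limma-voom. They were 4863 with only the compared groups, 2864 in males and 3288 with the block, beside 3858. The block, which fits replicate numbers as pairs, took the Atp4b adjusted p to 0.076 and males alone to 0.075, with log2 fold changes of 1.20 and 1.24 beside 1.25. Same-numbered mTEChi and cTEC libraries correlated by 0.041 to 0.1 in HOIL-deficient groups, each above the highest value with another number (-0.04 to 0.028). In control groups they correlated by -0.049 to 0.12, beside highest values with another number of -0.052 to 0.077. The 2 mTEChi groups correlated by -0.087 to -0.02, beside 0.11. The labels do not pair the numbers, so they were not read as pairs. Whether same-numbered cell types share animals was not tested. Over all genes, calls in mTEChi were 1944 to 3116 with a library left out, beside 3858 (2558 and 2343 without HOIL-deficient replicates 1 and 2, 1944 and 2279 without control replicates 1 and 3). In cTECs they were 1395 with only the compared groups, 1540 in males and 1340 to 2306 with a library left out, beside 2342 (1445 without HOIL-deficient replicate 2, 1340 without control replicate 3). For the difference they were 1030 in males and 949 to 2088 with a library left out, beside 1908 (949 without control mTEChi replicate 3, 1172 without control mTEChi replicate 1, 1182 without HOIL-deficient mTEChi replicate 3, 1256 without control cTEC replicate 3).

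Signs turned, for values not called in any setting, in Tg in mTEChi (-0.28 in males, -0.0097 with the block, -0.30 to 0.53 with a library left out) and Gad1 in mTEChi (-0.32 to 0.12). They turned for Sag in cTECs (-0.0245 to 1.05 with a library left out), and for Atp4a in cTECs (-0.28 in limma-voom, -3.86 in males, -3.92 to 1.69) and in the difference (0.16, 3.66, and -1.80 to 3.82). The cause was not tested, though the Atp4a values without HOIL-deficient cTEC replicate 3, and those in males, lack its only 12 counts in that group. These Atp4a values are fitted against a group at 0 and depend on the prior count. RLE scaling moved the median of all genes by -0.141 in the difference and 0.192 between control cell types. It took the share of calls that were higher to 45.0% in the difference, beside 60.7%, and DESeq2 took it to 46.2% in mTEChi, beside 56.8%. Between the HOIL-deficient cell types Tg was 4.79 in males, beside 5.67, and Atp4a 8.08 in limma-voom and 11.4 in males, beside 6.76, with both genes called. The 11.4 is likewise fitted against a group at 0 and is no bound. Rbp3 and Gad2 were testable only without the filter. In cTECs the depth limits what can be seen to about 0.1 CPM.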

Other observations

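The neighbours of the antigen genes on the chromosome were looked at after their values were seen. Atp4b, at chr8:13386209-13396778 on GRCm38.p6, lies between Tfdp1, a cell cycle transcription factor 7760 bases away, and the photoreceptor kinase gene Grk1, 8302 bases away. Tfdp1 averaged 206 ± 15.2 CPM in HOIL-deficient mTEChi and 84.3 ± 31.5 CPM in control mTEChi (log2 fold change 1.25, standard error 0.207, edgeR adjusted p = 0.0015), the same fitted change as Atp4b. Grk1 had 10.9, 6.91 and 9.32 CPM in HOIL-deficient mTEChi, against 4.20, 5.79 and 3.82 CPM in control mTEChi, without overlap (log2 fold change 0.92, edgeR adjusted p = 0.19), and 0 counts in all cTEC libraries. In both Atp4b and Grk1, replicate 1 was the highest and replicate 2 the lowest of the HOIL-deficient libraries, and the control order was also the same, with replicate 2 highest and replicate 3 lowest.

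Sag, at chr1:87798143-87845158, lies between Atg16l1 and Dgkd, whose log2 fold changes in mTEChi were 0.34 and -0.28 (edgeR adjusted p = 0.25 and 0.49), beside 1.33 for Sag. Gad1, at chr2:70561303-70602014, lies beside Erich2, at 0.655 ± 0.749 CPM in HOIL-deficient mTEChi and 4.78 ± 1.90 CPM in control mTEChi (edgeR adjusted p = 0.064), and Gorasp2, at 184 CPM in HOIL-deficient mTEChi and 105 CPM in control mTEChi (edgeR adjusted p = 0.0082). No explanation of these values was tested.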
